A study of Homo sapiens with 6 samples.

Results

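Transcripts of WNT ligands and of proteins that modulate WNT signalling were examined in HaCaT cells, a line of immortal keratinocytes with an abnormal chromosome number. The genes were taken from a list of 10: the ligands WNT4, WNT7A, WNT7B and WNT10A, the antagonist DKK1, the receptor LGR4, the ubiquitin ligase ZNRF3, the scaffold AXIN2, the transcription factor TCF7L2 and the regulator TCIM. Of these, 9 had a row among the 12829 genes of the expression table, and AXIN2 is not analysed here. There were 3 libraries of cells labelled shIQGAP2, with the genotype IQGAP2 knockdown, and 3 libraries labelled normal control, with the genotype WT; both groups were grown in DMEM with serum. IQGAP2 is a scaffold protein that binds calmodulin and actin. The sample titles number the libraries of each group as biological replicates. The labels do not say whether the control cells carried a hairpin, how many hairpins were used or whether the lines were clones. Nor do they say whether each replicate had a culture of its own. The p-values therefore reflect the scatter among the sequenced libraries alone, and that scatter may be technical.

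WNT proteins are lipid-modified secreted ligands that bind Frizzled receptors and the co-receptors LRP5 and LRP6. In the canonical branch, binding stops a destruction complex of APC, axin, casein kinase and glycogen synthase kinase from marking beta-catenin for degradation, and beta-catenin then acts with TCF and LEF factors on target genes. In skin the pathway is known for the formation of hair follicles and for the upkeep of stem cells of the follicle and the interfollicular epidermis, and basal keratinocytes are themselves a source of WNT ligands and of antagonists.

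Expression was given as FPKM, that is fragments scaled by gene length and sequencing depth. Levels of different genes can be compared on this scale only as far as the gene lengths used are right. Those lengths are not given. The ratio of the length implied by the values to the GENCODE exon length lay within 10% of its median for 85.4% of genes. Levels below are FPKM, with mean ± SD within each group (n = 3 libraries), and log2 changes subtract the control mean of log2(FPKM + 1) from that of the knockdown, a scale on which changes of low genes come out too small. Adjusted p-values are from limma over the 11214 genes that averaged 0.5 FPKM or more. IQGAP2 itself (ENSG00000145703) had 2, 4 and 2 reads in the knockdown libraries and 24, 22 and 21 reads in the control libraries. That is 0.0235 ± 0.00808 FPKM in the knockdown and 0.196 ± 0.00547 FPKM in the control. Both levels lay below 0.5 FPKM, so IQGAP2 was not in the main fit. A limma fit of all 12829 genes gave it a log2 change of -0.22 (adjusted p = 0.00816). With so few reads the size of this fall is uncertain. Reads recovered per library were between 12901037 and 15360759 in the knockdown group and between 13957447 and 15122470 in the control group. Knockdown replicate 2 was unlike its group: the chi-square of its reads against knockdown replicates 1 and 3, divided by the degrees of freedom, was 11.27 and 10.48, where the remaining pairs of a group gave 2.1 to 2.49. Results are also given without it where it changed a call. FPKM summed to between 234624 and 248082 in knockdown libraries and to between 271372 and 274709 in control libraries, and rescaling to a common sum moved the median change of all genes by 0.13, to 0.14. All 11 keratinocyte markers examined had a row and a mean of at least 1 FPKM. Markers of melanocytes, endothelium, immune cells and Merkel or neural cells had rows for 2 of 6, 2 of 5, 1 of 7 and 1 of 4 genes, none with a mean of 1 FPKM or more. Of 8 fibroblast markers 3 had a row and they summed to 1.56 to 1.91 FPKM in knockdown and to 3.46 to 3.79 FPKM in control libraries, a difference carried by LUM at 0.134 to 0.403 FPKM in knockdown and 1.86 to 2.55 FPKM in control libraries. The part of these transcripts in the results below was not tested.

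DKK1 was the only one of the 9 genes that rose, and WNT4, TCIM and WNT10A fell. Knockdown levels were 2.06 times the control level for DKK1, 0.18 of it for TCIM, 0.54 of it for WNT4 and 0.89 of it for WNT10A, the last a fall that did not hold under other scalings. The other 5 genes, WNT7A, WNT7B, LGR4, ZNRF3 and TCF7L2, did not pass the test. In bulk RNA, a smaller share of cells that express a gene and less of its RNA in each cell cannot be told apart. Changes were widespread: of all genes tested 57.4% were called, 29.5% higher and 27.8% lower, so 4 calls among 9 genes is no feature of this list. A call with at least a 2-fold change was made for 1.67% of all genes tested, and DKK1 and TCIM were among these. The 9 genes were chosen with earlier results of these data known, so neither this share nor those below test the list. The median change of the 9 genes was -0.14, against 0.01 for all genes tested. The libraries of the groups did not overlap for 5 of the 9 genes, 1 higher and 4 lower, while over all genes tested this held for 65.1% (33.7% higher and 31.4% lower). Rescaling each library to a common sum left 1 of the 9 genes higher and 2 lower, beside 43.4% and 16.4% of all genes. After quantile normalization 1 was higher and 4 lower (28.8% and 28.3% of all genes), with the length trend removed 1 was higher and 3 lower (29.9% and 26.6%), and with voom on recovered reads 1 was higher and 3 lower (30.5% and 28.4%). Each gene was covered by between 57 and 2073 reads in every library.

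**Figure D1:**
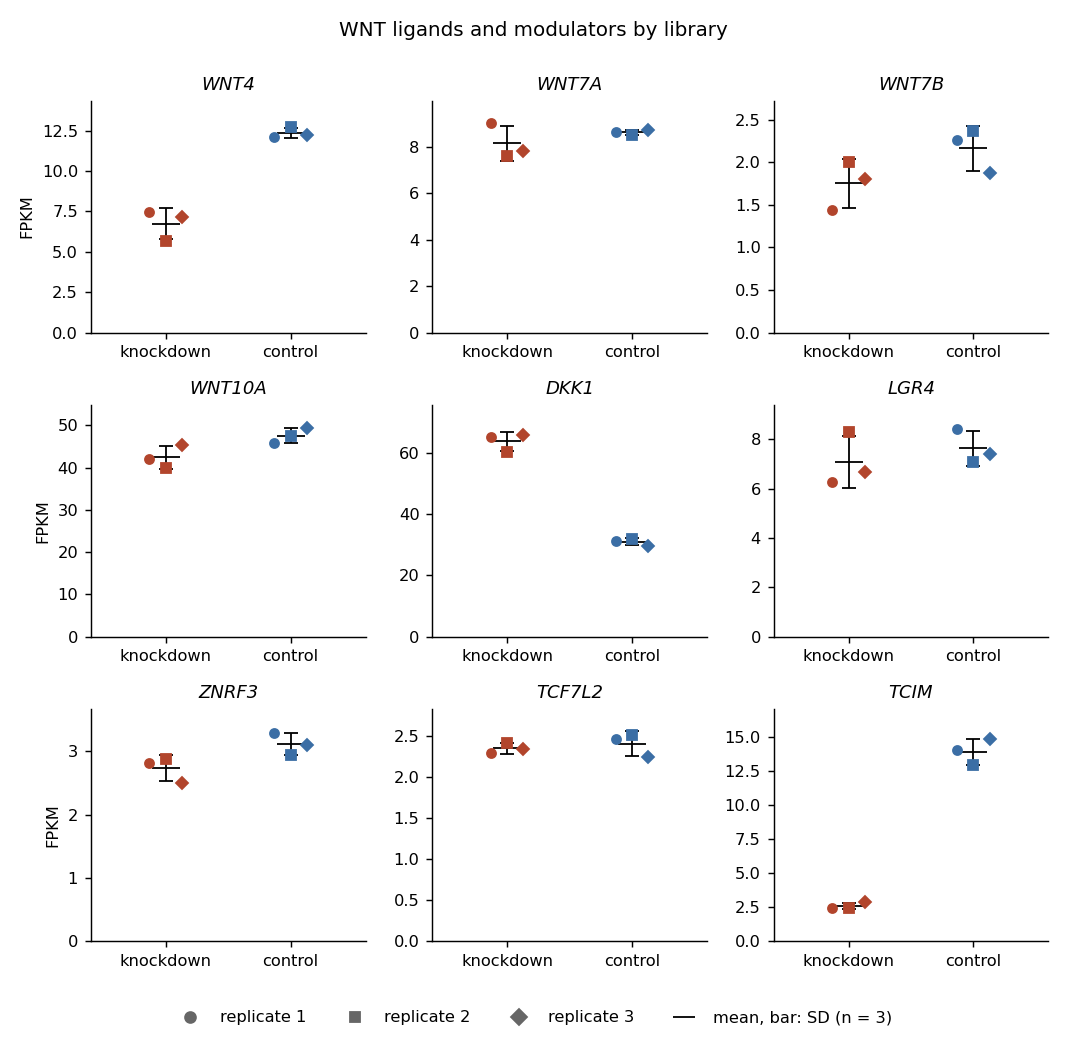
FPKM of the 9 genes in each library, with knockdown libraries on the left and control libraries on the right of each panel; symbols mark the replicate, the horizontal line is the mean and the bar the SD (n = 3), and each vertical axis starts at 0. DKK1 lies at 60.3 FPKM or more in the knockdown and at 31.9 FPKM or less in the control, TCIM and WNT4 lie lower in every knockdown library than in any control library, and the points of WNT7A, WNT7B, LGR4 and TCF7L2 overlap.

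Among the ligands, WNT4 was lower in the knockdown and its control level was not approached by any knockdown library. WNT4 (ENSG00000162552, GRCh38 chromosome 1, 22117305 to 22143969, minus strand), a ligand known for its roles in kidney tubule and female reproductive tract development, was at 7.44, 5.64 and 7.15 FPKM in the knockdown libraries and at 12.1, 12.7 and 12.2 FPKM in the control libraries. Knockdown replicate 2 was the lowest of the 6 libraries, and the highest knockdown value was still well below the lowest control value. The means were 6.74 ± 0.967 FPKM in the knockdown and 12.4 ± 0.317 FPKM in the control (log2 change -0.80, SE 0.0863, 95% interval -0.99 to -0.60, adjusted p = 4.42e-05). Without knockdown replicate 2 the change was -0.69 (adjusted p = 4.03e-06), and it lay between -0.89 and -0.65 under the 15 alternative settings, all of which kept the call. Among all genes tested, 212 had a change as low or lower.

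WNT10A (ENSG00000135925, chromosome 2, 218880363 to 218899581, plus strand), whose loss in humans affects teeth, hair and skin, had the highest level of the ligands. It was at 42, 40 and 45.3 FPKM in the knockdown libraries and at 45.8, 47.5 and 49.4 FPKM in the control libraries. The groups did not overlap, but knockdown replicate 3 and control replicate 1 lay close together. The means were 42.5 ± 2.65 FPKM in the knockdown and 47.6 ± 1.78 FPKM in the control (log2 change -0.16, SE 0.0548, 95% interval -0.28 to -0.04, adjusted p = 0.0282). This fall was not kept by other ways of scaling: the change was 0.00 with values rescaled to a common sum (adjusted p = 0.981), -0.11 after quantile normalization (adjusted p = 0.0887) and -0.04 with the trend over gene length removed (adjusted p = 0.5). It also lost the call without knockdown replicate 1 (adjusted p = 0.0644), without control replicate 2 (adjusted p = 0.0736) and without control replicate 3 (adjusted p = 0.118).

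WNT7A and WNT7B are closely related ligands, known in the brain for signalling to blood vessels through RECK and ADGRA2. WNT7A (ENSG00000154764, chromosome 3, 13816258 to 13880121, minus strand) was at 9, 7.62 and 7.81 FPKM in the knockdown libraries and at 8.63, 8.52 and 8.74 FPKM in the control libraries. Knockdown replicate 1 lay above every control library and the other knockdown libraries below them, so the groups overlapped. The log2 change was -0.08 (95% interval -0.23 to 0.07, adjusted p = 0.348). WNT7B (ENSG00000188064, chromosome 22, 45920362 to 45977129, minus strand) was at 1.44, 2.01 and 1.81 FPKM in the knockdown libraries and at 2.26, 2.37 and 1.87 FPKM in the control libraries. Control replicate 3 lay within the range of the knockdown libraries. Its log2 change was -0.20 (95% interval -0.42 to 0.01, adjusted p = 0.097), and without knockdown replicate 2 it passed as lower (-0.27, adjusted p = 0.0365), as it did after quantile normalization (-0.24, adjusted p = 0.049).

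Of 19 WNT genes 12 had a row, these ligands among them. The other 7 had no value here, so sums and shares describe the 12 genes and not all WNT transcripts of the cells. The FPKM of the 12 genes summed to 68.7 ± 2.89 in the knockdown and to 79.7 ± 1.89 in the control. This ratio of 0.86 moves with the sum of all FPKM. Shares of this sum do not depend on the scaling of a library. WNT10A made up 61.7 ± 1.57% of it in knockdown libraries and 59.7 ± 0.854% in control libraries. WNT4 was the second ligand in control libraries, at 15.5 ± 0.541%, and held 9.79 ± 1.09% in knockdown libraries. WNT7A held 11.9 ± 1.04% in the knockdown and 10.8 ± 0.203% in the control, so that the order of WNT4 and WNT7A differed between the groups in each library. WNT9A, known for joint and liver development, held 10.1 ± 1.11% in the knockdown and 7.22 ± 0.393% in the control. The remaining 8 ligands, WNT7B among them, each held less than 4% in every library. With 3 libraries against 3 no exact permutation test can go below p = 0.1, and no test was made on these shares.

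**Figure D2:**
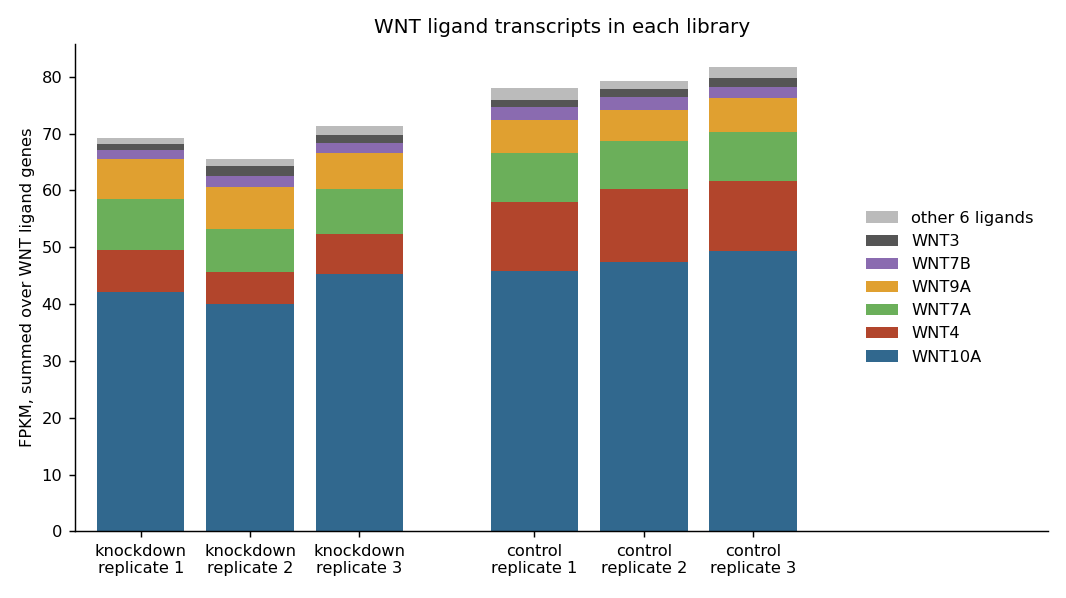
FPKM summed over the 12 WNT genes with a row, as stacked bars starting at 0, for the 3 knockdown libraries on the left and the 3 control libraries on the right; colours stand for genes and grey for the 6 ligands below 0.5 FPKM on average. WNT10A forms most of each bar, and the segment of WNT4 is smaller in each knockdown library than in any control library.

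DKK1 (ENSG00000107984, chromosome 10, 52314296 to 52318042, plus strand) rose. It encodes a secreted protein that binds LRP5 and LRP6 and so blocks canonical WNT signalling, and it is itself known as a target of beta-catenin. Its promoter and that of WNT4 are shown because the rise of DKK1 and the fall of WNT4 held under every alternative setting. The fall of TCIM held too, but no promoter of TCIM was available. Each window runs from 250 bases before to 50 bases after the RefSeq start on GRCh38.p14, at chr10:52314031-52314330 (plus strand) for DKK1 and at chr1:22143048-22143347 (minus strand) for WNT4, written 5′ to 3′ on the strand of the gene. Capitals mark exact matches on either strand to CTTTGA (the core bound by TCF and LEF factors), TGANTCA (AP-1), GGAATG (TEAD factors) or GGGCGG (the GC box bound by SP factors), and adjoining or overlapping matches run together.
DKK1 promoter: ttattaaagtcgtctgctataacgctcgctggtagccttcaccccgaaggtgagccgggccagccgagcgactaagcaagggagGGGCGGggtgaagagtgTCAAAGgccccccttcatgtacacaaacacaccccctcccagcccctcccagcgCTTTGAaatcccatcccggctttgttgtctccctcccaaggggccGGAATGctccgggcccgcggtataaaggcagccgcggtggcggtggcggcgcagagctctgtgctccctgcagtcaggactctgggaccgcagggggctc
WNT4 promoter: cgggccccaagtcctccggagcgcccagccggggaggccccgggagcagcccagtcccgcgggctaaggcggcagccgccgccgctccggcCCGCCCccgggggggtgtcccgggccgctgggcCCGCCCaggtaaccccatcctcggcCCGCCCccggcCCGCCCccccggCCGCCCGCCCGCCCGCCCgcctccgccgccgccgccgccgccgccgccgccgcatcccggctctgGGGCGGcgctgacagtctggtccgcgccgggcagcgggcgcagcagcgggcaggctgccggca
The DKK1 window held 2 matches to the TCF and LEF core, starting at -149 and -95 relative to the start, 1 TEAD match at -50 and 1 GC box at -166. The WNT4 window held 9 GC boxes, some of them overlapping, and none of the other motifs. Its GC content was 85.7%, against 63.7% for DKK1. On the minus strand the WNT4 gene of GENCODE starts at 22143969, so the WNT4 window lies wholly inside that gene. It describes the RefSeq start alone. Of the 35116 RefSeq promoters of this length, 12.9% held the TCF and LEF core, 14% the TEAD motif, 7.71% the AP-1 motif and 45% the GC box. Among the 6 listed genes with a promoter in the table (WNT4, WNT7A, WNT10A, DKK1, LGR4 and TCF7L2), DKK1 alone matched the TCF and LEF core. These matches describe the letters in the window and nothing was measured on binding.

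DKK1 was at 65.3, 60.3 and 66 FPKM in the knockdown libraries and at 31.3, 31.9 and 29.7 FPKM in the control libraries. Every knockdown library lay far above every control library, and the values within each group were close. The means were 63.9 ± 3.1 FPKM in the knockdown and 31 ± 1.13 FPKM in the control, a ratio of 2.06 (log2 change 1.02, SE 0.0512, 95% interval 0.91 to 1.13, adjusted p = 3.56e-07). The change was between 0.99 and 1.19 under the 15 alternatives, which all kept the call, and 1.06 without knockdown replicate 2. Among all genes tested, 88 had a change as high or higher. DKK1 was also the most abundant transcript of the 9 in the knockdown, above WNT10A in every knockdown library and below it in every control library.

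Of the other antagonists, 18 were listed with DKK1 included, 7 had a row and 5 were tested. DKK1 was the only one called with the values as deposited, beside 29.5% of all genes tested higher and 27.8% lower. DKK3, a relative of DKK1 whose action on WNT signalling is less clear, was at 3.94 ± 0.208 FPKM in the knockdown and 3.68 ± 0.275 FPKM in the control (adjusted p = 0.361). KREMEN1 and KREMEN2, membrane receptors that bind DKK1, were at 13.1 ± 0.735 FPKM and 12.7 ± 2.45 FPKM in the knockdown and at 13.3 ± 0.273 FPKM and 15.3 ± 1.05 FPKM in the control (adjusted p = 0.781 and 0.0697). KREMEN2 passed as lower with voom on recovered reads (-0.30, adjusted p = 0.0472), with the replicate block (-0.27, adjusted p = 0.0208) and without knockdown replicate 3 (-0.37, adjusted p = 0.0223), and DKK3 passed as higher with a common sum (0.21, adjusted p = 0.0443).

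LGR4 and ZNRF3 act on the amount of receptor at the cell surface. ZNRF3 is a ubiquitin ligase that removes Frizzled proteins from the membrane, and LGR4 is a receptor for R-spondins, which take ZNRF3 away. LGR4 (ENSG00000205213, chromosome 11, 27365961 to 27472775, minus strand) was at 6.28, 8.29 and 6.67 FPKM in the knockdown libraries and at 8.42, 7.08 and 7.39 FPKM in the control libraries. Knockdown replicate 2 lay among the control libraries while the other knockdown libraries lay below them all. The log2 change was -0.10 (95% interval -0.31 to 0.11, adjusted p = 0.395), and without knockdown replicate 2 it passed as lower (-0.20, adjusted p = 0.0369). Rescaled to a common sum, its sign turned (0.05, adjusted p = 0.727), so no direction is given.

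ZNRF3 (ENSG00000183579, chromosome 22, 28883592 to 29057487, plus strand) was at 2.82, 2.88 and 2.5 FPKM in the knockdown libraries and at 3.3, 2.95 and 3.11 FPKM in the control libraries. The groups did not overlap, but knockdown replicate 2 and control replicate 2 nearly met. The log2 change was -0.14 (95% interval -0.31 to 0.02, adjusted p = 0.123). It passed as lower after quantile normalization and with the length trend removed (both -0.19, adjusted p = 0.0372 and 0.0422), and was -0.02 with a common sum (adjusted p = 0.86). In the list of R-spondins, their receptors and the ligases, 4 of 9 genes had a row and were tested. LGR6 and RNF43, both lower in level than LGR4, rose, beside 29.5% of all genes tested higher and 27.8% lower. The count is too small to set this list apart. LGR6, which marks stem cells in mouse skin, was at 1.96 ± 0.165 FPKM in the knockdown and 0.902 ± 0.181 FPKM in the control (log2 change 0.64, adjusted p = 2.24e-04). RNF43, a ligase related to ZNRF3, was at 2.81 ± 0.181 FPKM in the knockdown and 1.9 ± 0.205 FPKM in the control (log2 change 0.40, adjusted p = 0.00199). Both calls were kept under the 14 alternatives in which these genes were tested.

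TCIM (ENSG00000176907, chromosome 8, 40153455 to 40155308, plus strand) showed the deepest fall of the 9 genes. It encodes a small protein reported to bind CBY1, an inhibitor of beta-catenin, and so to favour beta-catenin signalling. TCIM was at 2.4, 2.44 and 2.83 FPKM in the knockdown libraries and at 14, 12.9 and 14.8 FPKM in the control libraries. All knockdown libraries lay near the same low level and none approached a control library. The means were 2.55 ± 0.236 FPKM in the knockdown and 13.9 ± 0.966 FPKM in the control, a ratio of 0.18, and the reads behind them were 57, 69 and 72 in the knockdown and 391, 333 and 381 in the control. The log2 change was -2.07 (SE 0.0743, 95% interval -2.23 to -1.90, adjusted p = 5.13e-08), and -2.44 with voom on the recovered reads, where no pseudocount of 1 FPKM dampens it. Only 8 of the genes tested, TCIM included, had a change as low, and the call was kept under all 15 alternatives (-2.44 to -1.87). Its partner CBY1 was at 4.82 ± 0.616 FPKM in the knockdown and 5.37 ± 0.678 FPKM in the control and did not pass (adjusted p = 0.279).

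TCF7L2 (ENSG00000148737, chromosome 10, 112950250 to 113167678, plus strand), a DNA-binding partner of beta-catenin, was at 2.29, 2.42 and 2.34 FPKM in the knockdown libraries and at 2.47, 2.52 and 2.24 FPKM in the control libraries. The groups overlapped across nearly their whole range. The log2 change was -0.02 (95% interval -0.18 to 0.13, adjusted p = 0.787). CTNNB1, which encodes beta-catenin, was at 17.7 ± 1.23 FPKM in the knockdown and 16.2 ± 0.502 FPKM in the control and did not pass either (log2 change 0.12, adjusted p = 0.103).

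**Figure D3:**
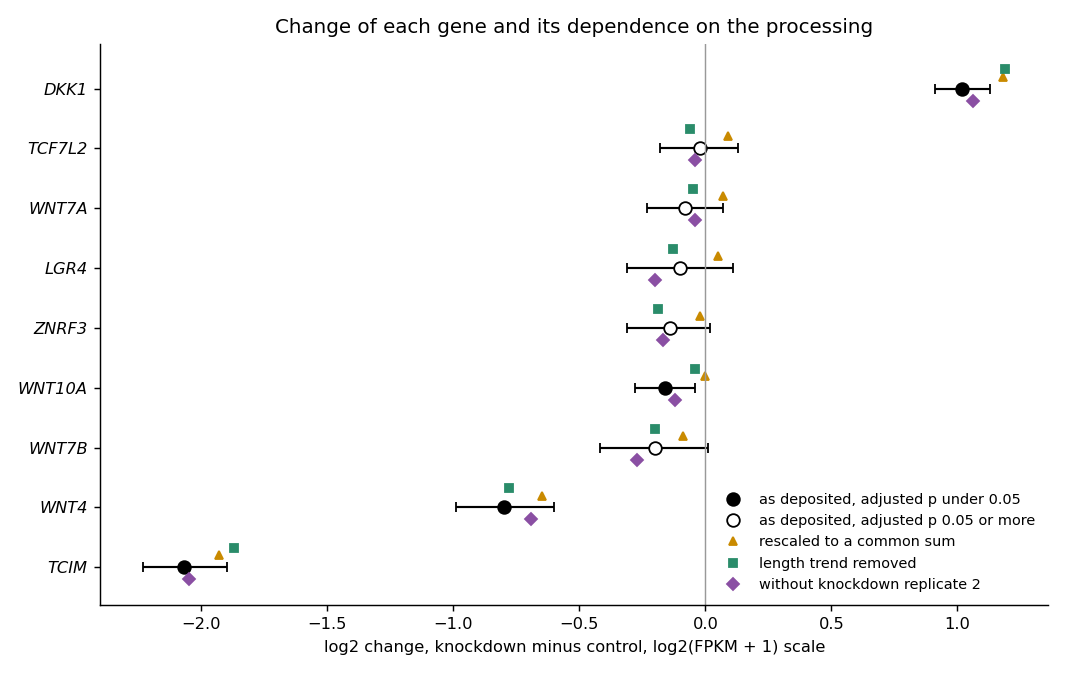
Log2 change (knockdown minus control, log2(FPKM + 1) scale) of the 9 genes, ordered by change; circles are values as deposited with 95% intervals of limma, filled where the adjusted p is under 0.05, and smaller symbols give the change after rescaling to a common sum, after removal of the length trend and without knockdown replicate 2. DKK1, WNT4 and TCIM stay far from 0 in every case, while WNT10A reaches 0.00 with a common sum and WNT7A, LGR4 and TCF7L2 cross to the other side.

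Genes of the pathway around these 9 were read from lists by role; over all lists 77 genes were tested, of which 25 were higher (32.5%) and 12 lower (15.6%), with a median change of 0.02. Of all genes tested, 29.5% were higher and 27.8% lower. With a common sum 33 of the 77 genes were higher (42.9%) and 7 lower (9.09%), beside 43.4% and 16.4% of all genes. The counts of single lists below are small and are to be read against these shares. Calls among Frizzled receptors and co-receptors went both ways. Of 14 tested, 3 were higher (FZD4, FZD6 and LRP6) and 3 lower (FZD2, FZD8 and LRP5), and the median change was 0.00. With a common sum the counts were 4 and 3. With the length trend removed 2 were higher and 4 lower, and the median change was -0.06. FZD6, a receptor known for the orientation of hair in mice and for nail growth in humans, was the most abundant Frizzled. It was at 48.2, 57.4 and 49.6 FPKM in the knockdown libraries and at 38.8, 36.6 and 36.8 FPKM in the control libraries (log2 change 0.45, adjusted p = 2.41e-04). Knockdown replicate 2 was the highest and the groups did not overlap. FZD6 made up 67.5 ± 1.68% of the FPKM of the 9 Frizzled genes with a row in the knockdown and 58.3 ± 0.745% in the control. FZD4 was at 7.02 ± 0.423 FPKM in the knockdown and 4.75 ± 0.23 FPKM in the control (log2 change 0.48, adjusted p = 2.05e-04). FZD8 was at 1.55 ± 0.0731 FPKM in the knockdown and 2.76 ± 0.227 FPKM in the control (log2 change -0.56, adjusted p = 1.67e-04). FZD2 was at 4.03 ± 0.965 FPKM in the knockdown and 6.52 ± 0.971 FPKM in the control (log2 change -0.59, adjusted p = 0.00345).

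The co-receptors that DKK1 binds moved in opposite directions. LRP5 was at 11.1, 10.9 and 11.8 FPKM in the knockdown libraries and at 15.9, 15.2 and 15.4 FPKM in the control libraries, with no overlap (log2 change -0.43, adjusted p = 9.27e-05). LRP6 was at 3.63, 3.85 and 3.41 FPKM in the knockdown libraries and at 3.01, 2.74 and 2.67 FPKM in the control libraries, also with no overlap (log2 change 0.28, adjusted p = 0.00742). LRP5 kept its call under all 15 alternatives, and LRP6 lost it with the length trend removed (0.16, adjusted p = 0.0624). LRP5 remained the more abundant in every library.

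**Figure D4:**
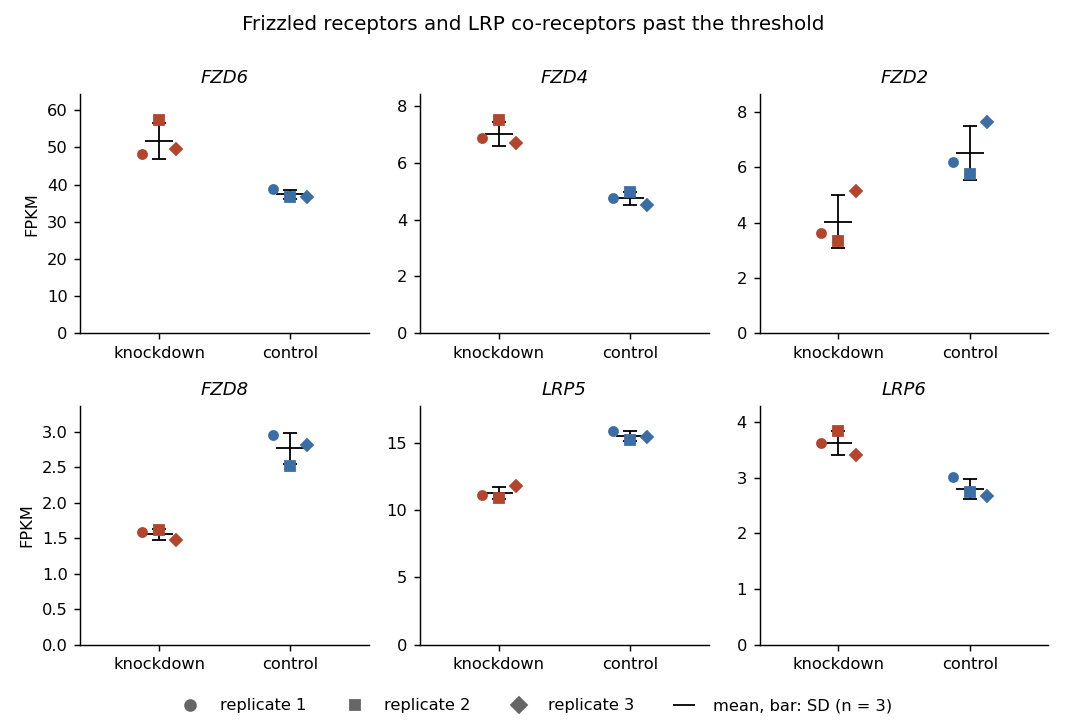
FPKM of the 6 Frizzled and LRP genes past the threshold in each library, with knockdown libraries on the left and control libraries on the right of each panel; symbols mark the replicate, the line is the mean and the bar the SD (n = 3). FZD6, FZD4 and LRP6 lie higher and FZD2, FZD8 and LRP5 lower in all 3 knockdown libraries than in any control library.

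In the destruction complex and Dishevelled list, 7 of 16 genes tested rose and 1 fell, with a median change of 0.10, beside 29.5% of all genes higher and 27.8% lower. With a common sum 9 rose and none fell, beside 43.4% and 16.4% of all genes. With the length trend removed 7 rose and 3 fell, beside 29.9% and 26.6% of all genes, and the median change was 0.04. CSNK1A1, the casein kinase that primes beta-catenin for degradation, was at 33.4 ± 3.08 FPKM in the knockdown and 18.5 ± 0.235 FPKM in the control (log2 change 0.81, adjusted p = 5.54e-06). The tankyrases TNKS2 and TNKS, which mark axin for degradation, were at 21.6 ± 1.4 FPKM and 5.67 ± 0.406 FPKM in the knockdown and at 13.8 ± 0.444 FPKM and 3.98 ± 0.0531 FPKM in the control (log2 changes 0.61 and 0.42, adjusted p = 1.91e-05 and 5.05e-04). Casein kinase and tankyrases are thus known to act on beta-catenin in opposite senses. APC, GSK3B, BTRC and FBXW11, all parts of the machinery that marks beta-catenin for degradation, rose by 0.33 to 0.41 on the log2 scale, and DVL2 fell (log2 change -0.14, adjusted p = 0.0467), a call that 8 of its 15 alternatives lost and 1 turned. DVL1, the most abundant of the list at 45.7 ± 1.75 FPKM in the knockdown and 45.6 ± 0.94 FPKM in the control, did not pass (adjusted p = 0.965). With a common sum DVL1 passed as higher (0.17, adjusted p = 0.0201).

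Among nuclear effectors 3 of 14 were higher and 3 lower, with a median change of -0.02. Apart from TCIM, the calls were among the TLE co-repressors and the beta-catenin cofactor BCL9L. TLE1 was at 19.6 ± 0.255 FPKM in the knockdown and 15.1 ± 0.307 FPKM in the control (log2 change 0.36, adjusted p = 1.38e-04), and TLE4 was at 3.99 ± 0.455 FPKM in the knockdown and 3.03 ± 0.11 FPKM in the control (log2 change 0.31, adjusted p = 0.00783). TLE5, a short member of the family and the most abundant gene of the list, was at 26.8 ± 1.33 FPKM in the knockdown and 30.3 ± 1.96 FPKM in the control (log2 change -0.17, adjusted p = 0.0311). The call of TLE5 was lost under 6 of 15 alternatives, among them a common sum (-0.01, adjusted p = 0.896) and the fits without knockdown replicate 2 (-0.13, adjusted p = 0.057), knockdown replicate 3 (adjusted p = 0.0507), control replicate 1 (adjusted p = 0.0974) and control replicate 3 (adjusted p = 0.135). With a common sum 5 genes of this list were higher and 1 lower, and 1 was lower without control replicate 1 or control replicate 3.

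WNT secretion genes and the WNT7 co-receptors gave 1 rise and 1 fall among 4 genes. WLS, which carries WNT proteins to the cell surface, was at 31.1 ± 0.897 FPKM in the knockdown and 26 ± 0.647 FPKM in the control (log2 change 0.25, adjusted p = 0.00113). RECK was at 0.879 ± 0.204 FPKM in the knockdown and 1.41 ± 0.116 FPKM in the control (log2 change -0.36, adjusted p = 0.00724). WNT9A, the ligand outside the 9 genes that passed, was at 6.93 ± 0.5 FPKM in the knockdown and 5.75 ± 0.337 FPKM in the control (log2 change 0.23, adjusted p = 0.0172), and lost the call without knockdown replicate 1 (adjusted p = 0.0517) or control replicate 2 (adjusted p = 0.0746).

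Of 21 known transcriptional targets of the pathway, 14 had a row and 11 were tested. AXIN2, LGR5, NKD1, LEF1, TCF7, NOTUM and ASCL2 had no row, so the counts do not cover them. The tested targets did not move one way. Calls were higher for 5 (DKK1, CCND1, RNF43, BAMBI and TBX3) and lower for 2 (EPHB2 and CD44), with a median change of 0.10. Over all genes tested, 29.5% were higher and 27.8% lower. CCND1, which encodes cyclin D1, was at 87.5 ± 5.57 FPKM in the knockdown and 65.4 ± 1.4 FPKM in the control (log2 change 0.41, adjusted p = 1.18e-04). EPHB2, an ephrin receptor, was at 3.66 ± 0.174 FPKM in the knockdown and 5.29 ± 0.219 FPKM in the control (log2 change -0.43, adjusted p = 3.69e-04). ZNRF3, SP5, EPHB3 and JAG1 did not pass with the values as deposited. With the length trend removed 5 targets were higher and 4 lower, and with a common sum 6 were higher and 1 lower. With a common sum CD44 lost its call and EPHB3 passed as higher (0.26, adjusted p = 0.00527). Without knockdown replicate 2 there were 3 lower targets, with JAG1 added (-0.20, adjusted p = 0.00121). The change of JAG1 was 0.03 with a common sum (adjusted p = 0.738).

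**Figure D5:**
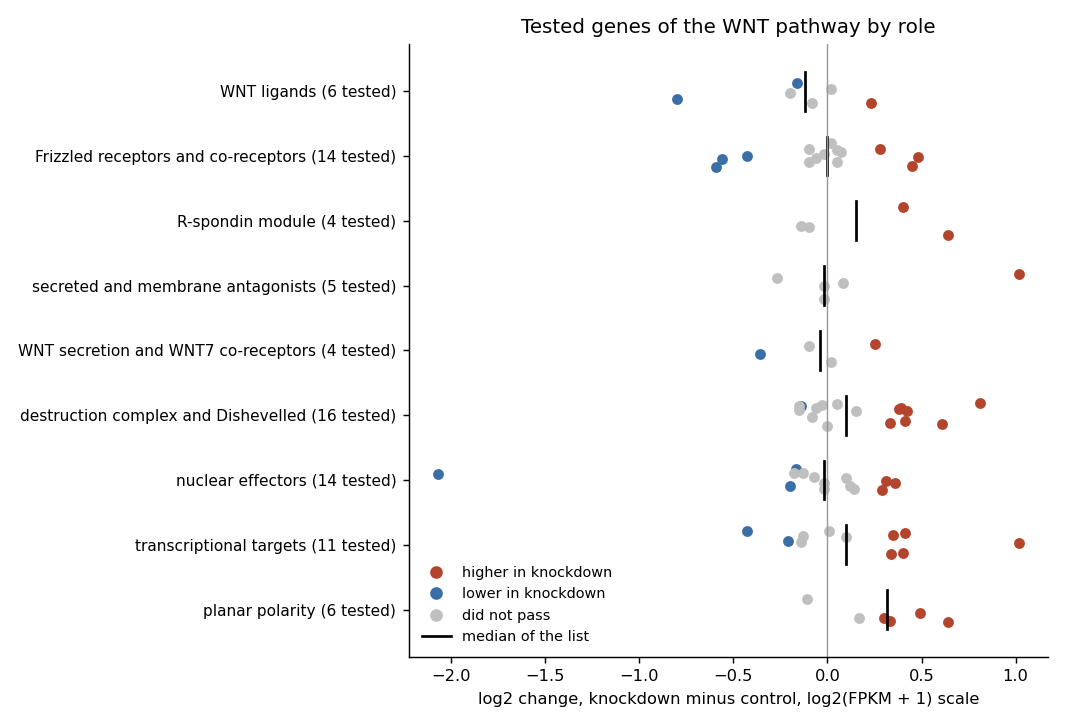
Log2 change (knockdown minus control, log2(FPKM + 1) scale) of each tested gene of 9 lists of WNT pathway genes by role; red points were higher and blue points lower in the knockdown at an adjusted p under 0.05, grey points did not pass, and the black line is the median of the list. TCIM at -2.07 and DKK1 at 1.02 lie farthest from 0. DKK1, RNF43 and ZNRF3 each appear in 2 lists.

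The genes most like DKK1 and TCIM were sought by the root mean square distance between centred log2(FPKM + 1) values over the 6 libraries, among the 11213 other genes tested. For DKK1 they were FST, the activin-binding protein follistatin (distance 0.037), the stress keratin gene KRT16 (0.0582) and PYGB, a glycogen phosphorylase (0.0631). KRT16 was at 81.5 ± 6.84 FPKM in the knockdown and 38.1 ± 1.23 FPKM in the control, and FST was at 33.4 ± 2.48 FPKM in the knockdown and 15.9 ± 0.863 FPKM in the control. For TCIM they were the metalloproteinase gene MMP7 (0.11), the transcription factor gene SOX2 (0.14) and PDZK1IP1 (0.15). SOX2 was at 2.38 ± 0.488 FPKM in the knockdown and 14.3 ± 0.562 FPKM in the control, and MMP7 was at 8.47 ± 0.506 FPKM in the knockdown and 39.6 ± 0.675 FPKM in the control. With 2 groups this measure mostly finds genes with a change of like size.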

How the data were processed

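Total RNA was extracted with TRIzol and libraries were made with a TruSeq RNA kit, per the labels' protocols. The authors deposited FPKM values for each gene. HISAT2 2.2.1 and GRCh38 are named per the submitters' processing notes. What counted the reads, on which annotation and with what use of strand is not given in the sources used here. Every gene of the table has a mean of at least 0.1 FPKM.

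Whole reads were recovered from the steps of the FPKM values for all 12829 genes (tolerance 0.004 reads) and served for depth and for an alternative with voom. The main comparison used limma (version 3.58.1, under R version 4.3.3) on log2(FPKM + 1), with group as the only factor, a mean-variance trend, two-sided tests and Benjamini-Hochberg adjustment over the 11214 genes that averaged 0.5 FPKM or more, at a threshold of 0.05; none of the 9 genes lay below this filter. Coordinates are from GENCODE v29 (GRCh38) and promoters from RefSeq (GRCh38.p14). On data simulated for this comparison over 11177 genes, limma recovered 88.1% of genes changed by 1.5-fold, 98.5% by 2-fold and 100% by 4-fold, and called 10 of 10981 unchanged genes. The simulation changed only a small part of the genes and gave each gene independent scatter. It held no library that differed as a whole and no difference in FPKM sum between groups. These rates may therefore not carry over to the real libraries.

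The genes and lists were chosen with earlier results of these data known. The named genes were the 9 genes, IQGAP2, for each of the 9 lists the 3 called genes of greatest absolute change plus its most abundant gene, and the 3 genes nearest in profile to the largest rise and fall; other genes were named after their values were seen. Replicate numbers are shared by the groups, but nothing in the labels pairs the libraries.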

Additional observations from a re-analysis of the deposited data

How the results depend on the processing

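DKK1, WNT4 and TCIM kept direction and call under all 15 alternatives. Over the 9 genes, 118 of 132 values kept direction and call, 5 lost the call alone, 5 gained one and 4 changed sign. Among those that changed sign was WNT10A with a common sum, which also lost its call. With values rescaled to a common sum, 1838 genes were lower and 4864 higher in the knockdown, against 3121 and 3313 as deposited. Then 2 of the 9 genes were lower, and the changes of WNT7A, WNT10A, LGR4 and TCF7L2 were 0.07, 0.00, 0.05 and 0.09. Among the other pathway genes named, DVL2 was at 0.02, SCRIB at 0.05, JAG1 at 0.03 and KREMEN1 at 0.14, each negative as deposited. When 1 library was left out, 2 to 5 of the 9 genes were lower, 5 without knockdown replicate 2, and the change of DVL1 lay between -0.02 and 0.03. The genes called over all then numbered 5457 to 6462. Counts of all genes lower were 2678 to 3212. The cause of these shifts was not tested. In the fit with the replicate block, 6191 genes were called over all, 1 of the 9 genes was higher and 3 lower; deviations of libraries with the same number correlated at -0.07 to 0.02, so the numbers were not taken to pair them, and the block changed no call among the 9. All 9 genes passed the filter, so none of them needed the fit without it; 12 genes of the pathway lists did not. With 3 libraries a group, changes of the size of WNT10A or ZNRF3 lie near the spread between libraries.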

Other observations

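Ligands of low level, chosen after their values were seen, were outside the comparison above because their means lay below 0.5 FPKM. WNT16, a ligand known in bone, had 1, 2 and 3 reads in the knockdown libraries and 29, 14 and 16 reads in the control libraries. In the fit of all 12829 genes its log2 change was -0.43 (adjusted p = 0.00165). WNT11, a ligand of the non-canonical branch, had 11, 9 and 14 reads in the knockdown libraries and 4, 4 and 1 reads in the control libraries (log2 change 0.30, adjusted p = 0.00622 in the same fit). At such depth a few reads set the value.

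In the planar polarity list, 4 of 6 genes tested were higher and none lower, with a median change of 0.31, beside 29.5% of all genes tested higher and 27.8% lower. With a common sum 5 were higher and none lower, beside 43.4% and 16.4% of all genes. DAAM1, a formin that acts downstream of Dishevelled, was at 15.6 ± 1.52 FPKM in the knockdown and 9.65 ± 0.183 FPKM in the control (log2 change 0.64, adjusted p = 4.11e-05). VANGL2, a core membrane protein of planar polarity, was at 6.02 ± 0.224 FPKM in the knockdown and 4.02 ± 0.403 FPKM in the control (log2 change 0.49, adjusted p = 3.81e-04). CELSR2, a large cadherin of the same system, was at 14.8 ± 1.18 FPKM in the knockdown and 11.6 ± 0.393 FPKM in the control (log2 change 0.33, adjusted p = 0.00154). SCRIB was at 29.1 ± 1.39 FPKM in the knockdown and 31.5 ± 0.39 FPKM in the control and did not pass (adjusted p = 0.078). With the length trend removed the median was 0.17 and 1 gene of the list was lower.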
